A study of Homo sapiens with 66 samples.

Results

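The RNAs of 10 genes of the THO/TREX mRNA export complex (THOC1, THOC2, THOC3, THOC5, THOC6, THOC7, DDX39B, DDX39A, ALYREF and CHTOP) were followed through 66 RNA-seq libraries of DLD-1, a line from a human colorectal cancer. The genes were chosen by name, as subunits or close partners of the complex, with earlier results of these data known. They were matched by symbol to the Ensembl identifiers of the count tables. All 10 of the 10 were found among 58051 genes, and all 10 were among the 17812 genes that passed the filter on low counts.

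The libraries fall into 22 groups of 3. In AID-NeonGreen-TPR (AID-TPR below), NUP153-NeonGreen-AID (NUP153-AID), NUP50-NeonGreen-AID (NUP50-AID), GAP1-NeonGreen-AID (GAP1-AID; the study's RANGAP1 line), AID-FLAG-NXF1 (AID-NXF1) and AID-HA-GANP1 (AID-GANP1) cells, both alleles of 1 gene carry an auxin-inducible degron. All these lines also carry TIR1, the plant protein that has degron-tagged proteins degraded when auxin is added, expressed from the RCC1 gene, and the labels give no second clone of any line. Untreated cells were set against cells given auxin (1 mM) for 2 h (AID-TPR, NUP153-AID, GAP1-AID, AID-NXF1), 3 h (NUP50-AID, AID-GANP1), 8 h (NUP153-AID, GAP1-AID) or 9 h (NUP50-AID), and the parental line, labelled original, was sequenced with and without auxin at 2 h. AID-TPR has a further set of libraries labelled old1 to old3, untreated or with auxin for 2 h or 8 h. It was also treated for 2 h with Actinomycin D (ActD), an inhibitor of transcription, with or without auxin, in libraries without the label old.

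THO is a multisubunit complex that joins RNA as it is transcribed. With the RNA helicase DDX39B (also called UAP56) and adaptor proteins such as ALYREF and CHTOP it forms TREX, which loads the export receptor NXF1 onto spliced mRNA. NXF1 then carries the mRNA through the nuclear pore. TREX-2 is a separate complex, built on the scaffold GANP, that sits at the nuclear basket of the pore, where TPR, NUP153 and NUP50 are found. DDX39A is a close paralog of DDX39B, and its helicase takes part in export as well.

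Totals ran from 18943661 to 55411411 counts per library. Values below are counts per 1000000 of the library size after TMM scaling within one line and label set (CPM), and a gene is said to pass when edgeR's quasi-likelihood test gives a Benjamini-Hochberg adjusted p under 0.05 over all tested genes. Of the epithelial markers, KRT8, KRT18, CDH1, EPCAM and CDX2 were detected in every library, KRT20 reached from 5.93 to 190 CPM, VIL1 was low (1.32 to 30.3 CPM) and LGALS4 was at 0 to 0.732 CPM. The 8 epithelial markers together reached 5306 to 15173 CPM and the markers of other cell types (PTPRC, VIM, COL1A1 and PECAM1) 0.193 to 3.10 CPM. The degron acts on protein, so that RNA levels of the tagged genes do not check its loss. CYP1A1, taken here to respond to auxin itself, rose after 2 or 3 h in every tagged line, where auxin also removes the tagged protein. It went against the labels in the parental line, with 169, 181 and 201 CPM in the libraries labelled untreated and 9.54, 14.2 and 14.5 CPM in those labelled auxin. In the old AID-TPR set it stood at 417, 47.7 and 342 CPM in the 2 h libraries old1, old2 and old3, and at 91.4, 290 and 43.1 CPM in the 8 h libraries. In both groups old2 lay outside its own group, on the side of the other time point, and the results of this set are given with and without it.

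DDX39B could be read in only 33 of the 66 libraries. In the 33 libraries of the old AID-TPR, ActD, NUP153-AID and NUP50-AID groups it had 3 to 19 counts (0.110 to 0.537 CPM), and the readthrough gene ATP6V1G2-DDX39B had 0. In the 24 libraries of AID-NXF1, AID-GANP1, the parental line and AID-TPR without ActD or the label old, DDX39B had 11539 to 23528 counts. There the readthrough gene held 78.6% to 90.8% as many counts as DDX39B, and in the 9 GAP1-AID libraries 100% to 100.04%. DDX39B (ENSG00000198563, chr6:31530219-31542448, minus strand, GRCh38) shares 30.8% of its exon bases with other genes, 29.7% with the readthrough gene on the same strand. These 3 patterns follow the 3 ways in which the reads had been counted, which also differ in whether mitochondrial genes and RMRP hold counts. No value of DDX39B is therefore given for the 33 libraries, and elsewhere its counts cannot be told apart from those of the readthrough gene.

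**Figure D1:**
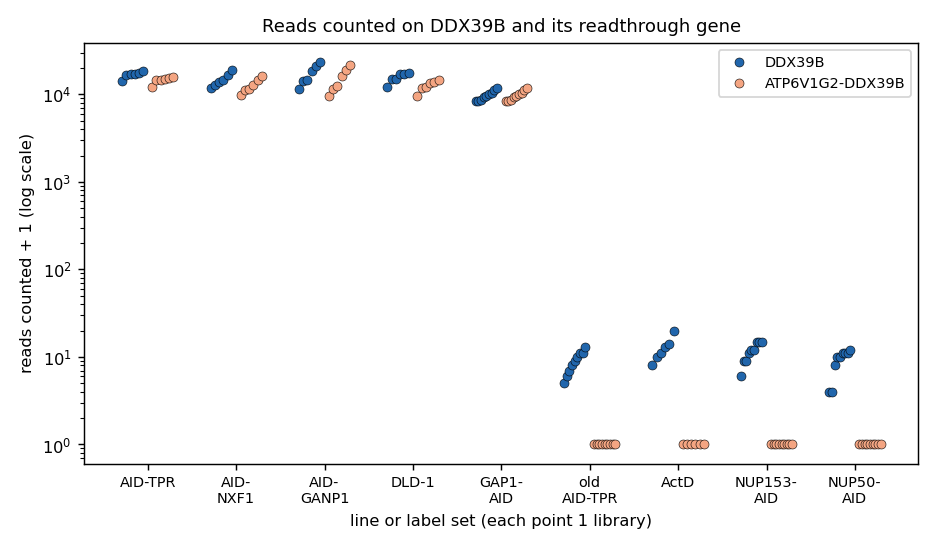
Reads counted on DDX39B (blue) and ATP6V1G2-DDX39B (orange) in each of the 66 libraries, plus 1, on a log scale, by line or label set. DDX39B holds at least 8395 reads in each library of the 5 sets on the left and at most 19 in each library of the 4 sets on the right, where the readthrough gene holds 0.

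To set levels of different genes side by side, CPM were divided by the length of all annotated exons of a gene. ALYREF was the highest of the members that could be read in all 8 untreated groups (group means of 107 to 146 CPM per kb). The length was 1583 bases for ALYREF and 7007 for DDX39B, of which 2079 are shared with the readthrough gene. The order of genes depends on this length, and other lengths were not tried. DDX39B came next wherever it could be read, with 58.8 ± 2.12 (SD, n = 3) in AID-NXF1 cells, 59.6 ± 1.71 in AID-GANP1 cells, 62.1 ± 1.95 in the parental line and 70.3 ± 2.61 in AID-TPR cells. In GAP1-AID cells its 39.5 ± 3.17 overlapped with the 37.3 ± 2.98 of DDX39A. DDX39A (27.7 to 37.3) and THOC7 (23.4 to 35.4) followed, and they overlapped with each other in the AID-TPR, NUP153-AID and NUP50-AID groups. CHTOP lay between 14.6 and 18.8 CPM per kb. The other 5 THO subunits were the lowest, THOC2 at 10.8 to 15.3, THOC6 at 10.1 to 17.1, THOC5 at 9.82 to 10.6, THOC3 at 7.72 to 12.9 and THOC1 at 7.22 to 10.6 CPM per kb. Among neighbours in this order, THOC2 and THOC6 overlapped in the parental, GAP1-AID, AID-TPR and old AID-TPR groups, and THOC3 and THOC1 in the AID-GANP1 and AID-TPR groups. Levels were scaled within each line and counted in different ways, so lines were not compared with each other. Within groups the coefficient of variation over 3 libraries had a median of 3.24% for THOC7 and 9.04% for THOC6, with the other members between, and DDX39A reached 43.5% in the old AID-TPR 2 h group that holds old2.

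**Figure D2:**
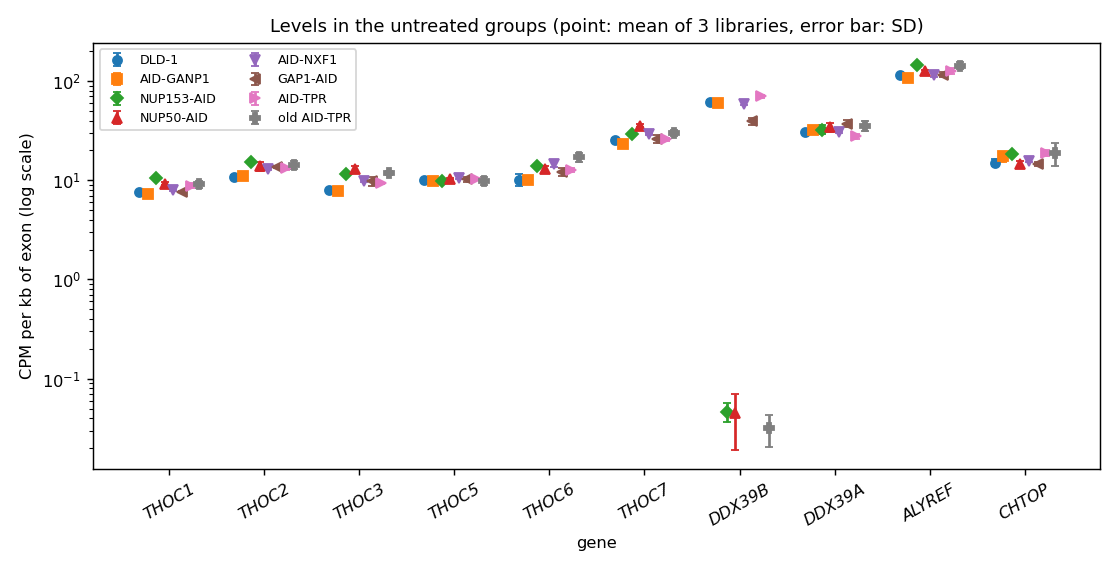
CPM per kb of exon (log scale) of each gene in the 8 untreated groups; each point is the mean of 3 libraries and its bar the SD. Among genes whose reads were assigned, ALYREF is highest in every group, and the 3 DDX39B points under 0.1 are the groups where its reads were not assigned.

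Each auxin group was set against the untreated libraries of its own line and label set, to ask whether loss of each export or pore protein changed the RNAs of the complex that feeds mRNA into the pathway. With auxin in AID-NXF1 and AID-GANP1 cells 5 of the 10 members rose, against 7.41% and 10.2% of all tested genes that were higher there. In GAP1-AID cells 1 member (THOC6) rose at 8 h (13.6% of all genes higher), and with ActD 3 rose (11.2%). In the other 10 comparisons none passed in edgeR. The share of all genes that passed in either direction there was 0.662% (AID-TPR 2 h), 0.455% and 3.63% (old AID-TPR 2 h and 8 h), 0.0393% and 1.92% (NUP153-AID 2 h and 8 h), 0.225% and 0.528% (NUP50-AID 3 h and 9 h), 0.595% (GAP1-AID 2 h), 0.0786% (parental line) and 0% (ActD with auxin against ActD alone). In these 10 comparisons the members with an unadjusted p under 0.05 numbered 4 in old AID-TPR 8 h. They numbered 1 each in old AID-TPR 2 h, NUP153-AID 8 h and NUP50-AID 9 h, and 0 in the rest. DESeq2 passed 2, 0, 1, 0 and 0 of them in the same order. The shares of all genes at that unadjusted threshold or with DESeq2 are not given here, so these counts have no background beside them. No member passed as lower in any of the 14 comparisons in edgeR as described above. CHTOP passed as lower in NUP153-AID 8 h with DESeq2 or without the filter on low counts, and in AID-NXF1 with replicate numbers as a block or without auxin replicate 3.

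**Figure D3:**
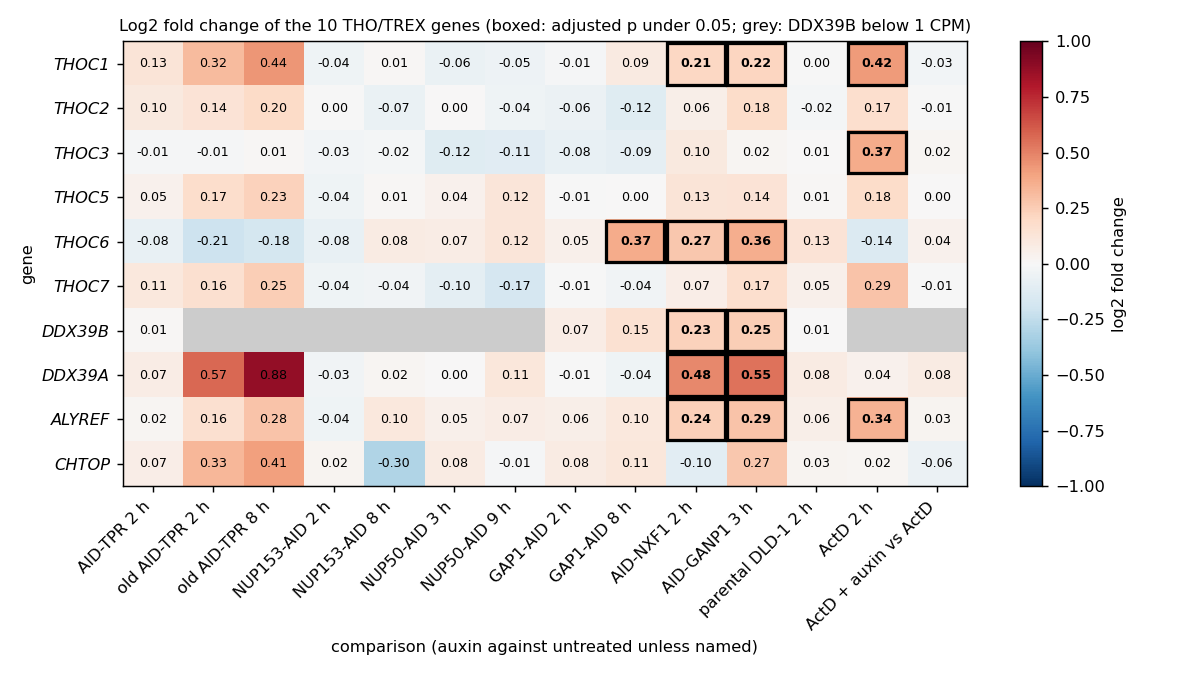
Log2 fold change (color and number) of the 10 genes in the 14 comparisons; boxes mark an adjusted p under 0.05 and grey cells DDX39B where it was under 1 CPM. Boxes fill 5 rows under AID-NXF1 and the same 5 under AID-GANP1, and the deepest color, DDX39A in old AID-TPR at 8 h (0.88), has no box.

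DDX39A (ENSG00000123136, chr19:14408798-14419383, minus strand) had the highest log2 fold change of the 10 in both lines. Its values were 121, 117 and 116 CPM in untreated AID-NXF1 replicates 1 to 3 and 163, 163 and 167 CPM after 2 h of auxin. In AID-GANP1 cells they were 124, 124 and 122 CPM untreated and 176, 176 and 189 CPM after 3 h. Every auxin library was thus above every untreated one in both lines, by more than the spread between replicates. The log2 fold change was 0.48 (SE 0.046, adjusted p = 3.05e-05) in AID-NXF1 and 0.55 (SE 0.066, adjusted p = 0.000154) in AID-GANP1, or 1.39-fold and 1.46-fold. DDX39A was also the only member past the study's size limit of 1.3-fold in these lines, which 2.22% and 3.97% of all genes passed in the higher direction. None of its exon bases overlap another annotated gene. DDX39A and DDX39B are similar in sequence, and how reads that match both were counted is not given in the sources used here.

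The 250 bases before the start annotated in RefSeq are shown for DDX39A, the member that rose most in these lines, and for THOC3, which passed in the ActD comparison. These are the only members that passed whose window, taken from RefSeq on GRCh38.p14, holds no annotated exon base. Of the 10 genes, 9 are in that table and THOC7 is not. Capitals mark the motifs searched on both strands, which did not overlap in these windows: CCAAT, the motif of the factor NF-Y, GGGCGG, the core motif of SP factors, and CGGAAG, a core motif of ETS factors. The DDX39A window is chr19:14419384-14419633 and the THOC3 window chr5:175968316-175968565, both on the minus strand. The THOC3 window lies inside the gene as GENCODE, the source of the gene positions here, places it (chr5:175917873-176034680). It is thus not upstream of the GENCODE start.
DDX39A: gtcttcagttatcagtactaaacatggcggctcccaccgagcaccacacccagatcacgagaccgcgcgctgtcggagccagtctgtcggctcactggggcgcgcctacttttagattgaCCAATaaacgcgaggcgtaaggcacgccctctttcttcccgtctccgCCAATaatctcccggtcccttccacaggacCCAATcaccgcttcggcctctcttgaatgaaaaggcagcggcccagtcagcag
THOC3: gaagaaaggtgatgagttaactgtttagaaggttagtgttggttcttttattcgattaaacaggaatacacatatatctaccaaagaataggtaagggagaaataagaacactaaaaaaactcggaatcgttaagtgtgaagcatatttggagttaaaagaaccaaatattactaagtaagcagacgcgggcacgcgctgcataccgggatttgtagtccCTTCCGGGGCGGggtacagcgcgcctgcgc
The DDX39A window holds 3 matches to the NF-Y motif and none to the other motifs, and the THOC3 window holds 1 match to the SP and 1 to the ETS motif. Over 27305 RefSeq promoter windows of the same length, 33.0% held the NF-Y motif, 42.3% the SP motif and 16.8% the ETS motif, and among the 9 members 4, 6 and 4 did.

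DDX39B, the helicase that is part of TREX itself, moved less than its paralog. It had 396, 416 and 425 CPM in untreated AID-NXF1 libraries and 475, 477 and 499 CPM with auxin. In AID-GANP1 cells the untreated libraries held 409, 413 and 431 CPM and the auxin libraries 474, 488 and 525 CPM. The groups did not overlap in either line. Log2 fold changes were 0.23 (SE 0.050, adjusted p = 0.00675) and 0.25 (SE 0.069, adjusted p = 0.0221). The readthrough gene, which shares its reads, changed by 0.27 (adjusted p = 0.00172) and 0.34 (adjusted p = 0.00666).

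Of the adaptors, ALYREF (ENSG00000183684, chr17:81887835-81891586, minus strand), which binds mRNA and hands it to NXF1, rose in both lines. AID-NXF1 cells held 190, 179 and 177 CPM untreated and 224, 213 and 207 CPM with auxin, and AID-GANP1 cells 167, 165 and 177 CPM and then 205, 190 and 226 CPM. In each line the lowest auxin library was above the highest untreated one. The log2 fold change was 0.24 (SE 0.051, adjusted p = 0.00641) in AID-NXF1 and 0.29 (SE 0.079, adjusted p = 0.0206) in AID-GANP1. CHTOP (ENSG00000160679, chr1:153633982-153646306, plus strand), the other adaptor among the members, passed in neither line in edgeR as described above. In AID-NXF1 it had 88.2, 86.8 and 91.8 CPM untreated and 80.2, 80.6 and 87.6 CPM with auxin, with a log2 difference of -0.10 (adjusted p = 0.185). In AID-GANP1 the values were 84.7, 108 and 101 CPM and then 103, 128 and 122 CPM, and the groups overlapped. The log2 difference there was 0.27 (adjusted p = 0.0769). It passed as higher with DESeq2 (adjusted p = 0.0401) and without the filter on low counts (adjusted p = 0.0215).

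Of the 6 THO subunits, THOC1 and THOC6 rose in both lines and the other 4 passed in neither in edgeR as described above. THOC1 (ENSG00000079134, chr18:214520-268050, minus strand) had 63.5, 64.7 and 65.6 CPM in untreated AID-NXF1 libraries and 77.7, 71.6 and 74.2 CPM with auxin. In AID-GANP1 cells it had 57.3, 59.7 and 58.5 CPM and then 71.3, 67.0 and 65.8 CPM. All auxin values were above all untreated ones, and the log2 fold changes were alike in size, 0.21 (SE 0.050, adjusted p = 0.0132) and 0.22 (SE 0.067, adjusted p = 0.0319). THOC6 (ENSG00000131652, chr16:3024027-3027755, plus strand) had 26.6, 25.5 and 28.4 CPM in untreated AID-NXF1 libraries and 29.3, 31.7 and 35.97 CPM with auxin. In AID-GANP1 it went from 18.0, 18.8 and 19.3 to 20.04, 27.0 and 25.3 CPM. In each line the lowest auxin library stood only just above the highest untreated one. The log2 fold changes were 0.27 (SE 0.079, adjusted p = 0.0310) and 0.36 (SE 0.11, adjusted p = 0.0299).

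THOC6 shares 13.98% of its exon bases with HCFC1R1 on the opposite strand. HCFC1R1 went from 16.01, 18.4 and 20.3 to 20.9, 20.7 and 28.8 CPM in AID-NXF1 cells (log2 difference 0.37, adjusted p = 0.0602) and from 15.7, 17.9 and 15.1 to 19.3, 25.9 and 24.6 CPM in AID-GANP1 cells (log2 0.52, adjusted p = 0.00818). It thus moved with THOC6 in both lines, and its part in the THOC6 values was not tested. The strand setting of the counting is not given in the sources used here. For THOC1, the gene that shares its last exon bases on the opposite strand, USP14, had log2 differences of 0.08 and 0.10 with adjusted p of 0.477 and 0.604.

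The other THO subunits had log2 differences of 0.06 to 0.13 in AID-NXF1 and of 0.02 to 0.18 in AID-GANP1 cells. THOC2 (ENSG00000125676, chrX:123600561-123733056, minus strand), the largest subunit and the scaffold of the complex, had 114, 114 and 115 CPM in untreated AID-GANP1 libraries and 135, 130 and 124 CPM with auxin, groups that did not overlap but missed the threshold (log2 0.18, adjusted p = 0.0602). In AID-GANP1 THOC2 passed with DESeq2 (adjusted p = 0.0498) and with RLE scaling (adjusted p = 0.0442). For THOC7 (ENSG00000163634, chr3:63833870-63863868, minus strand) the log2 difference in that line was 0.17 (adjusted p = 0.0925). For THOC5 (ENSG00000100296, chr22:29505879-29555216, minus strand) it was 0.14 (adjusted p = 0.198). THOC3 was the least moved there, at 0.02 (adjusted p = 0.895).

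**Figure D4:**
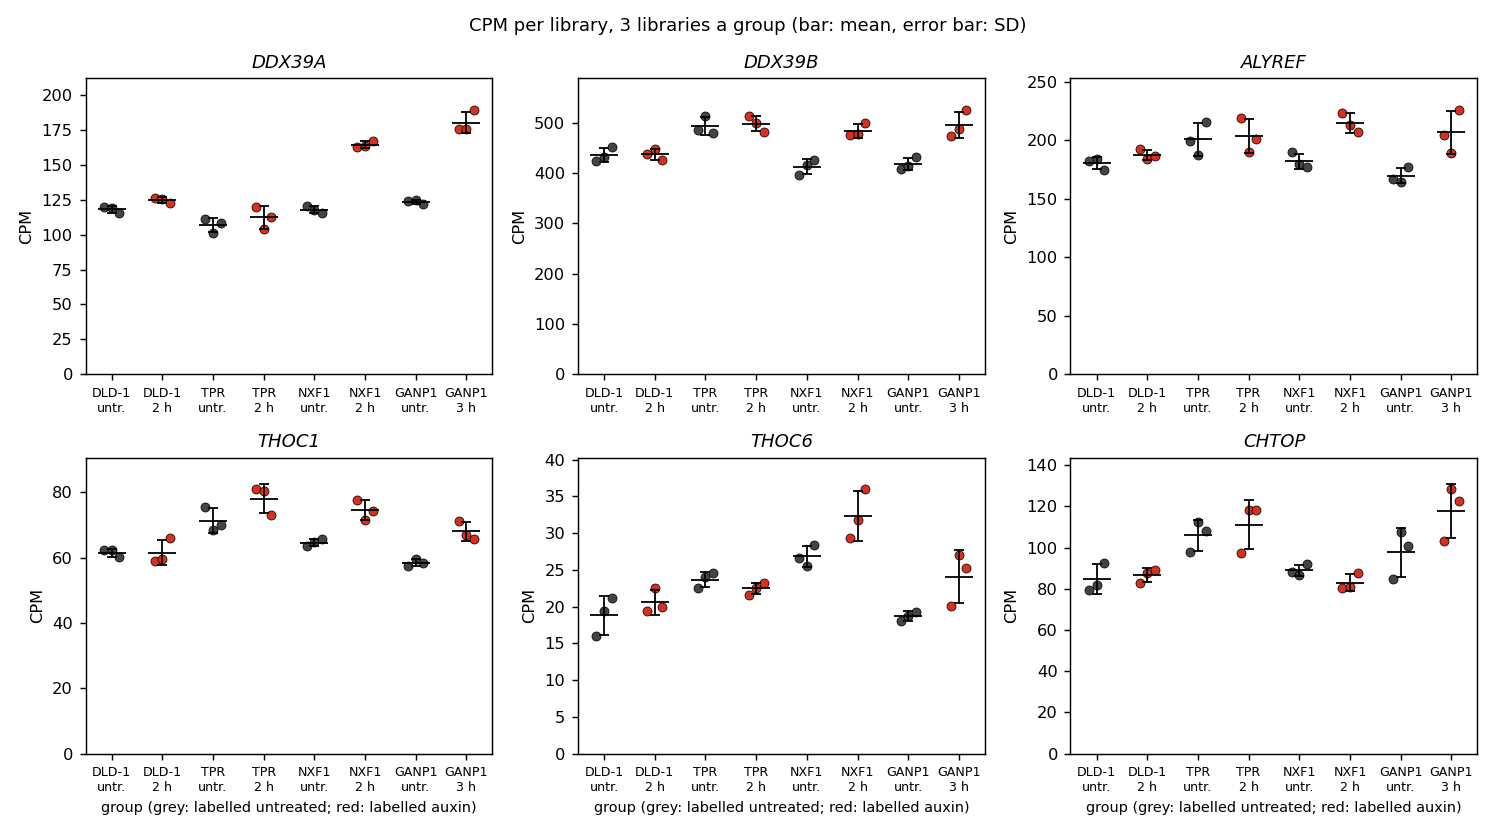
CPM of 6 members in each library of the parental, AID-TPR, AID-NXF1 and AID-GANP1 cells; points are libraries in replicate order, the bar is the mean and the error bar the SD of 3. DDX39A auxin libraries sit at 163 to 167 CPM in AID-NXF1 and 176 to 189 CPM in AID-GANP1, above all untreated libraries of their own line, whereas CHTOP groups overlap within each line.

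The 5 members that rose in AID-NXF1 cells were the same 5 that rose in AID-GANP1 cells, in comparisons with separate control libraries. The share of all tested genes that rose in both lines was not computed, so this overlap has no background beside it. The study reports that most of its GANP-dependent and NXF1-dependent transcripts were shared. In each line replicate numbers paired the libraries, since residuals of all 3 same-numbered pairs correlated above 0.1. With the replicate block the 5 remained, THOC5 (log2 0.13, adjusted p = 0.0120) and CHTOP (lower, log2 -0.10, adjusted p = 0.0360) were added in AID-NXF1 for 7 in all, and THOC2, THOC5, THOC7 and CHTOP (log2 0.27, adjusted p = 1.04e-06) in AID-GANP1 for 9 in all. The block also raised the share of all genes that passed in either direction, to 39% in AID-NXF1 and 52.6% in AID-GANP1, so that counts of 7 and 9 stand against that background. Without AID-GANP1 untreated replicate 1 or 2, only DDX39A passed in that line. Without its auxin replicate 3, DDX39A and THOC1 passed, and without auxin replicate 2 or untreated replicate 3, THOC1 and THOC6 were lost. Without auxin replicate 1, THOC1 was lost and CHTOP passed. In AID-NXF1 cells THOC1 and THOC6 were both lost without untreated replicate 2, THOC1 without auxin replicate 1, and THOC6 without auxin replicate 2 or 3 or untreated replicate 1. DDX39A passed in each of these fits. With library sizes alone in place of TMM, 3 members passed in AID-NXF1 and 1 (DDX39A) in AID-GANP1. That scaling moved the median of all genes by -0.06 and -0.11 (log2) and the share of higher genes among those that passed from 34.4% to 15.9% and from 35.3% to 12.2%.

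Differences between lines were tested as interaction terms among the AID-TPR, AID-NXF1, AID-GANP1 and parental libraries that had been counted in one way. These tests held no replicate block, although replicate numbers paired the AID-TPR, AID-NXF1 and AID-GANP1 libraries, and none was run with it. AID-GANP1 cells had 3 h of auxin and the others 2 h, so tests with AID-GANP1 cannot tell line and time apart. DDX39A changed less in AID-TPR cells at 2 h than in AID-NXF1 cells (difference in log2 fold change -0.40, SE 0.081, adjusted p = 0.0157) and AID-GANP1 cells (-0.47, SE 0.092, adjusted p = 0.00763), where 2.28% and 5.77% of all genes passed in either direction. In edgeR it was the only member that passed in either test. DESeq2 also passed DDX39B against AID-NXF1 (-0.23, adjusted p = 0.0448) and against AID-GANP1 (-0.26, adjusted p = 0.0488). It passed THOC6 against AID-GANP1 as well (-0.47, adjusted p = 0.0343). Against the parental line, with the direction there resting on labels that CYP1A1 contradicts, DDX39A differed by 0.39 (SE 0.056, adjusted p = 0.000267) in AID-NXF1 and by 0.48 (SE 0.069, adjusted p = 0.000216) in AID-GANP1. DDX39B differed by 0.22 (adjusted p = 0.0374) and 0.25 (adjusted p = 0.0326). These 2 were the members that passed there in edgeR, beside 9.71% and 20.1% of all genes. DESeq2 added ALYREF in both lines, and THOC1 and THOC2 in AID-GANP1. Of 14 alternative fits for each line, DDX39A passed in all, and DDX39B in 7 for AID-NXF1 and 6 for AID-GANP1. The parental difference taken off here was 0.08 for DDX39A and 0.01 for DDX39B on the log2 scale, smaller in size than each of the differences between lines, and the test was not run with the parental labels turned. Between AID-NXF1 and AID-GANP1 cells no member passed in edgeR or DESeq2, although CHTOP and THOC2 had an unadjusted p under 0.05 and 2.62% of all genes passed. The CHTOP difference was -0.41 (SE 0.13, adjusted p = 0.122), and it passed without AID-GANP1 auxin replicate 1 (-0.50, adjusted p = 0.0283). Against untreated with the replicate block, CHTOP had passed as lower in AID-NXF1 (-0.10) and as higher in AID-GANP1 (0.27). Between AID-TPR and the parental line no member passed in edgeR or DESeq2, none had an unadjusted p under 0.05, and 0.825% of all genes passed.

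In AID-TPR cells of the set without the label old, the 10 members had log2 differences of -0.08 (THOC6) to 0.13 (THOC1) after 2 h of auxin, and the lowest adjusted p was 0.606. DDX39A had 111, 101 and 108 CPM untreated and 120, 104 and 113 CPM with auxin. ALYREF had 200, 188 and 216 CPM and then 219, 190 and 201 CPM. For both genes the groups overlapped. The parental line had log2 differences of -0.02 (THOC2) to 0.13 (THOC6), each with an adjusted p of 1, and DDX39A there was at 120, 119 and 115 CPM in the libraries labelled untreated and 126, 126 and 123 CPM in those labelled auxin.

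In the old AID-TPR set DDX39A varied most. Untreated libraries old1, old2 and old3 held 156, 129 and 125 CPM. The 2 h libraries held 166, 303 and 139 CPM and the 8 h libraries 305, 143 and 303 CPM. At 2 h old2 was the high library and at 8 h the low one, the reverse of its CYP1A1 values. With all libraries the log2 difference was 0.57 (SE 0.25, adjusted p = 0.409) at 2 h and 0.88 (SE 0.25, adjusted p = 0.0759) at 8 h. Without the auxin library old2 it was 0.17 (adjusted p = 0.912) at 2 h and 1.15 (SE 0.12, adjusted p = 0.000189) at 8 h.

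THOC1 and ALYREF showed a smaller split of the same shape. THOC1 had 74.1, 79.4 and 67.8 CPM untreated, 91.7, 110 and 72.8 CPM at 2 h and 112, 84.1 and 104 CPM at 8 h. ALYREF had 247, 209 and 225 CPM untreated, 243, 297 and 221 CPM at 2 h and 283, 239 and 305 CPM at 8 h. In both genes old2 was the highest of the 2 h libraries and the lowest of the 8 h libraries. Without old2 at 8 h, 4 members rose: DDX39A, THOC1 (log2 0.55, adjusted p = 0.00748), ALYREF (0.37, adjusted p = 0.0354) and THOC5 (0.35, adjusted p = 0.0490), where 23.2% of all genes passed in either direction. With old2 the log2 differences of THOC1, ALYREF and THOC5 at 8 h were 0.44 (adjusted p = 0.0872), 0.28 (adjusted p = 0.180) and 0.23 (adjusted p = 0.345). DESeq2 passed DDX39A (adjusted p = 0.0126) and THOC1 (adjusted p = 0.0423) at 8 h with old2 included. THOC6 went the other way in this set, by -0.21 at 2 h and -0.18 at 8 h with old2 and by -0.08 and -0.26 (adjusted p = 0.213) without it, and passed in none of these fits. The 8 h and 2 h groups were also compared directly: with all libraries no member passed in edgeR or DESeq2 and no gene did (0% of all), with no member at an unadjusted p under 0.05, and without old2 in both groups DDX39A was 0.99 higher at 8 h (SE 0.14, adjusted p = 0.00676).

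**Figure D5:**
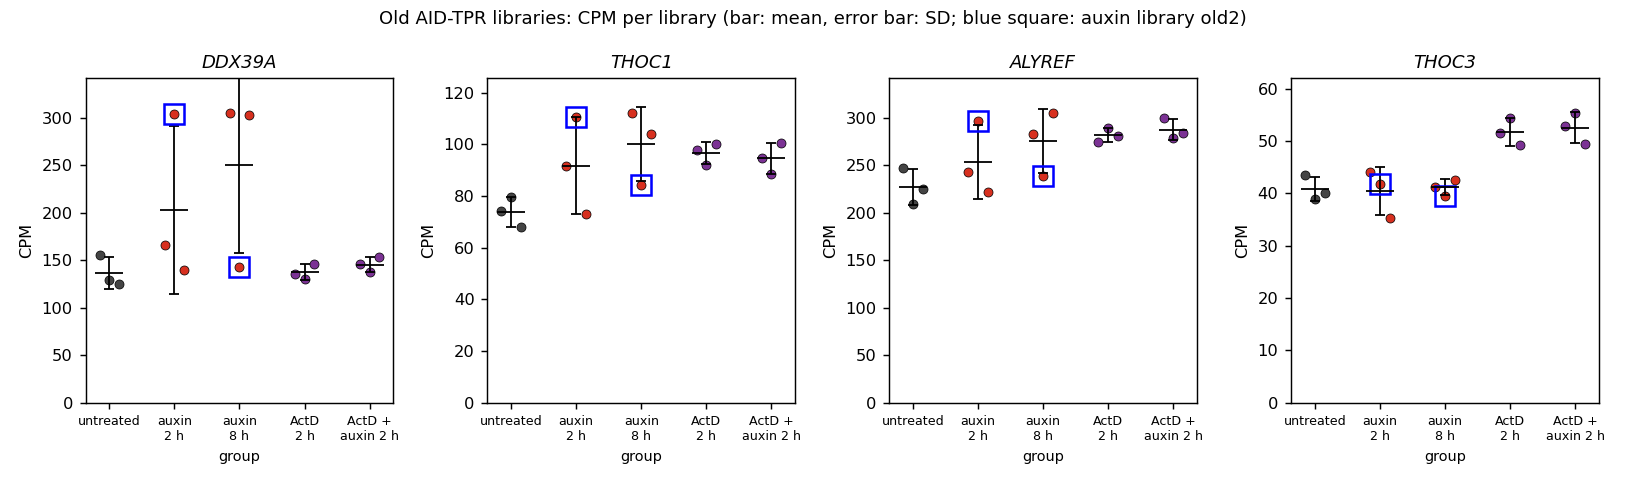
CPM of 4 members in each old AID-TPR and ActD library; points are libraries in replicate order, the bar is the mean and the error bar the SD of 3, and blue squares mark the auxin library old2. For DDX39A the marked library is at 303 CPM among the 2 h libraries and at 143 CPM among the 8 h libraries, whereas ActD libraries of THOC1 and THOC3 lie above all untreated ones.

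The 2 sets of AID-TPR libraries were compared at 2 h. No member differed between them in edgeR or DESeq2, none had an unadjusted p under 0.05 and 0% of all genes passed. The DDX39A difference was -0.50 with old2 and -0.10 without it. DDX39B is left out of this comparison, since its counts were made differently in the sets.

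In NUP153-AID and NUP50-AID cells no member passed against untreated in edgeR as described above. At 2 h of auxin in NUP153-AID cells the log2 differences, without DDX39B, ran from -0.08 to 0.02, and at 3 h in NUP50-AID cells from -0.12 to 0.08. Among the members without DDX39B, CHTOP moved most at 8 h in NUP153-AID cells. It had 108, 99.6 and 100 CPM untreated, 107, 97.7 and 108 CPM at 2 h and 75.9, 84.6 and 89.9 CPM at 8 h. All 8 h values were below all others. Against untreated the log2 difference was -0.30 (SE 0.076, adjusted p = 0.0830), which DESeq2 passed (adjusted p = 0.0167). Against 2 h CHTOP fell by 0.33 on the log2 scale (SE 0.075, adjusted p = 0.0433, 1.64% of all genes lower), a call that was lost in each of the 6 fits without 1 library. In NUP50-AID cells THOC7 went from 60.5, 61.4 and 64.0 to 54.2, 54.4 and 57.0 CPM at 9 h, groups that did not overlap, with a log2 difference of -0.17 (adjusted p = 0.232). Between 9 h and 3 h no member passed in edgeR or DESeq2, none had an unadjusted p under 0.05 and 0.331% of all genes passed.

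In GAP1-AID cells, which lose a protein of the nuclear transport cycle of Ran when auxin is added, THOC6 was the member that rose. It had 22.3, 20.9 and 24.9 CPM untreated, 25.3, 21.4 and 24.3 CPM at 2 h and 31.2, 27.3 and 29.8 CPM at 8 h. The 8 h libraries were above all of the others and the 2 h libraries overlapped with the untreated ones. The log2 fold change at 8 h was 0.37 (SE 0.089, adjusted p = 0.0122) against untreated and 0.31 (SE 0.092, adjusted p = 0.0417, 8.05% of all genes higher) against 2 h. HCFC1R1, which overlaps THOC6, had 17.8, 13.97 and 18.0 CPM untreated and 18.3, 15.3 and 16.4 CPM at 8 h (adjusted p = 1). The call against untreated was lost without auxin 8 h replicate 1 (adjusted p = 0.0529) or untreated replicate 2 (adjusted p = 0.0507), and the call against 2 h was lost in 5 of 6 fits without 1 library. DDX39A had 149, 152 and 131 CPM untreated and 147, 142 and 132 CPM at 8 h, with a log2 difference of -0.04 (adjusted p = 0.720). Replicate numbers paired these libraries too. With the replicate block 4 members passed at 8 h, THOC6 (0.37, adjusted p = 2.97e-07), DDX39B (0.15, adjusted p = 0.00343) and CHTOP (0.11, adjusted p = 0.0475) higher and THOC2 (-0.12, adjusted p = 0.0239) lower, where 48.2% of all genes passed in either direction.

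With ActD, which stops transcription, the study asked what underlies the RNA changes that follow TPR loss. The libraries with ActD alone were compared with the untreated old set, which was counted in the same way and scaled together with them. The ActD libraries do not carry the label old, so ActD and label set cannot be told apart here. CPM in this comparison is a share of the RNA that is left. THOC1 rose from 74.1, 79.4 and 67.8 to 97.8, 91.9 and 100 CPM (log2 0.42, SE 0.10, adjusted p = 0.0141). THOC3 (ENSG00000051596, chr5:175917873-176034680, minus strand) rose from 43.5, 39.0 and 40.1 to 51.6, 54.5 and 49.2 CPM (log2 0.37, SE 0.099, adjusted p = 0.0205). ALYREF rose from 247, 209 and 225 to 275, 289 and 281 CPM (log2 0.34, SE 0.098, adjusted p = 0.0272). For these 3 genes the groups did not overlap. THOC1 was the member past 1.3-fold (8.79% of all genes in the higher direction). DDX39A, with 135, 130 and 146 CPM, was near its untreated 156, 129 and 125 CPM (log2 0.04, SE 0.11, adjusted p = 0.862), and CHTOP had a log2 difference of 0.02. The 3 calls were fragile: none passed with library sizes alone, which moved the median of all genes by -0.10 and the share of higher genes among those that passed from 43.5% to 19.4%, none without ActD replicate 1, and THOC3 and ALYREF were lost without ActD replicate 2 or without untreated old2 or old3. Auxin added to ActD gave log2 differences of -0.06 to 0.08 without DDX39B, and no member had an unadjusted p under 0.05. The effect of auxin with and without ActD was compared as an interaction term, in which no member passed in edgeR or DESeq2, none had an unadjusted p under 0.05 and 0.0225% of all genes passed. Its DDX39A value was -0.49 with old2 and -0.08 without it.

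Other genes of the export pathway were followed as 3 lists: 8 further adaptors and TREX-associated factors, 8 genes of the cap-binding and exon junction complexes, and 9 genes of TREX-2 and of NXF1 with its cofactors. Of the 25, 24 were tested (LUZP4 was not). In AID-NXF1 cells 3 rose and 4 fell (median log2 difference of the 24 genes 0.10, all tested genes 0.01), where 7.41% of all tested genes were higher and 14.1% lower. In AID-GANP1 cells 5 rose and 5 fell (medians 0.12 and 0.01), beside 10.2% of all genes higher and 18.7% lower. Of these calls 6 genes are common to both lines, 6 of the 7 in AID-NXF1 and 6 of the 10 in AID-GANP1. Here too the share of all tested genes common to both was not computed. NXT1, the small partner of NXF1 in the export receptor, fell from 28.0 ± 0.771 to 19.5 ± 1.04 CPM (SD, n = 3; log2 -0.52, adjusted p = 0.000202) in AID-NXF1 and from 20.5 ± 1.7995 to 12.2 ± 0.903 CPM (log2 -0.74, adjusted p = 0.000270) in AID-GANP1. Among the genes of the lists that passed, it fell most in both lines. POLDIP3, an adaptor that binds TREX, fell by 0.22 (adjusted p = 0.0119) and by 0.41 (adjusted p = 0.00465) on the log2 scale, while SARNP, another TREX-associated protein, rose by 0.22 (adjusted p = 0.00966) and 0.35 (adjusted p = 0.00358). The other 3 genes common to both were NCBP2 (-0.30 and -0.32) and CASC3 (-0.21 and -0.34), which were lower, and SRRT (0.28 and 0.23), which was higher. CETN2 (0.25) passed in AID-NXF1 without passing in AID-GANP1. EIF4A3 (0.36), MCM3AP (0.26), the gene of GANP itself, FYTTD1 (0.23) and ZC3H18 (-0.31) passed in AID-GANP1 without passing in AID-NXF1, and whether these differ between the lines is not given here.

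In GAP1-AID cells at 8 h 3 genes of the lists rose and 2 fell (median -0.03, all genes -0.01), beside 13.6% of all genes higher and 13% lower. NCBP2, a subunit of the nuclear cap-binding complex, rose from 52.0 ± 0.881 to 82.0 ± 3.87 CPM (log2 0.65, adjusted p = 9.84e-05), FYTTD1, an export adaptor, by 0.26 and MAGOH, of the exon junction complex, by 0.26, while ZC3H11A fell by 0.27 and NCBP1 by 0.23. With ActD 9 rose and 1 fell (median 0.22, all genes 0), beside 11.2% of all genes higher and 14.5% lower. The 9 were NXT2 (0.69), CETN3 (0.67), FYTTD1 (0.52), MAGOHB (0.52), SEM1 (0.45), NCBP2 (0.44), ENY2 (0.42), ERH (0.31) and RBM8A (0.30), and NXT1 fell from 38.5 ± 4.85 to 23.3 ± 3.47 CPM (log2 -0.69, adjusted p = 0.00644). In old AID-TPR cells at 8 h FYTTD1 rose (0.49, adjusted p = 0.0438) and it was the only one of the 24 to pass in edgeR, with 9 at an unadjusted p under 0.05 and 3 past the threshold in DESeq2. In the other 9 comparisons none of the 24 passed in edgeR, and the number at an unadjusted p under 0.05 was 0 to 4. DESeq2 passed 1 each in NUP153-AID 8 h and NUP50-AID 9 h. Shares of all genes to set beside the unadjusted and DESeq2 counts are not given here.

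As a description of how single members varied, deviations from the untreated mean (log2 CPM) were correlated over the 36 treated libraries of the 12 auxin comparisons, among 10026 genes with a mean of at least 10 CPM. The genes most like ALYREF were PPP1R14B (Pearson r = 0.923) and WDR46 (0.912), for THOC1 PTPN2 (0.945) and SET (0.937), and for THOC6 USF2 (0.746) and DBNL (0.734). The libraries share lines, ways of counting and untreated controls, so no p is given. In libraries of whole cultures a lower level in all cells and fewer cells that express a gene cannot be told apart.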

How the data were processed

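Total RNA depleted of ribosomal RNA (TruSeq) was sequenced by the authors from independent cultures. The submitters' processing notes name CASAVA 1.8.2, STAR 2.6.1c, featureCounts 1.5.2 and GRCh38; strand and overlap options are not given in the sources used here. The deposited values are raw counts per Ensembl gene, without normalization. Reads had been counted in 3 ways (24, 33 and 9 libraries), and each comparison of auxin or ActD stayed within one. Replicate pairs differed by more than sampling noise (chi-square per degree of freedom 4.07 to 67.4 over 66 pairs).

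A gene was tested if it exceeded 1 CPM in at least 4 of the 60 libraries that had no ActD (17812 of 58051). Counts were scaled by TMM and tested with edgeR 4.0.16 (quasi-likelihood, Benjamini-Hochberg adjustment, limma 3.58.1, R 4.3.3). Comparisons against untreated stayed within each line and label set, except that ActD libraries, without the label old, were set against the untreated old set. Tests of differences between lines or label sets took in the groups of both and, like those between times, held no replicate block. A size limit of 1.3-fold up or 0.7-fold down followed the study. Standard errors are the log2 fold change over the square root of F. Symbols, positions and exon lengths came from GENCODE release 44 (56948 identifiers matched). Other settings were DESeq2 1.42.0, RLE scaling, library sizes alone, filterByExpr, no filter at all, a replicate block and each library left out in turn; the fits without old2 in both auxin groups were added after seeing the data. Python 3.11.15 with numpy 2.4.6, pandas 2.3.3 and matplotlib 3.10.9 made tables and figures, and the test was tried on simulated data.

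The members and lists were chosen with earlier results of these data known. Named genes were the 10 members, at most the 2 largest changes per list and comparison that passed, the tagged genes with CYP1A1, and the 2 genes most like each of 3 members that passed most often; overlapping genes and further genes of the lists were named after their values had been seen. Replicate numbers were taken to pair libraries where residuals of all 3 same-numbered pairs correlated above 0.1, across genes averaging at least 50 counts. This held in 7 of 13 comparisons, with lowest r of 0.22 for AID-NXF1, 0.50 for AID-GANP1 and 0.24 for GAP1-AID at 8 h.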

Additional observations from a re-analysis of the deposited data

Results flagged for a closer look

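These members differed between lines or times by a test of the difference itself (edgeR, no replicate block, Benjamini-Hochberg adjustment over all genes). Between 8 h and 2 h of auxin, CHTOP differed by -0.33 (log2) in NUP153-AID cells and THOC6 by 0.31 in GAP1-AID cells, with each 8 h library below (CHTOP) or above (THOC6) each 2 h library. The change of DDX39A with auxin differed by -0.40 between AID-TPR and AID-NXF1 cells and by -0.47 between AID-TPR and AID-GANP1 cells. Against the parental line it differed by 0.39 in AID-NXF1 and 0.48 in AID-GANP1 cells, and the change of DDX39B by 0.22 and 0.25. The last 4 values rest on the labels of the parental libraries, which CYP1A1 contradicts, and the DDX39B values on reads shared with its readthrough gene. DDX39B passed in 7 (AID-NXF1) and 6 (AID-GANP1) of 14 alternative fits. The calls between 8 h and 2 h passed in 2 (CHTOP) and 3 (THOC6) of 8 alternative fits. AID-GANP1 cells had 3 h of auxin and AID-TPR and parental cells 2 h, so line and time cannot be told apart in tests with AID-GANP1.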

How the results depend on the processing

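Of 22 log2 fold changes of members that passed, 195 of 265 alternatives kept the direction and passed, 70 kept the direction only and 0 changed sign. For member values that did not pass, 204 of 2509 alternatives had the opposite sign. DDX39A passed under every alternative run in AID-NXF1 and AID-GANP1 cells. The number of members that passed moved as follows. Without a filter it was 1 in old AID-TPR 2 h, 1 in old AID-TPR 8 h and 1 in NUP153-AID 8 h (each 0 otherwise). With DESeq2 it was 2 in old AID-TPR 8 h, 1 in NUP153-AID 8 h, 2 for AID-TPR against AID-NXF1 and 3 for AID-TPR against AID-GANP1 (1 each otherwise), and 5 for AID-GANP1 against the parental line (RLE 4, otherwise 2). In AID-GANP1 against untreated, DESeq2 passed 7 members and edgeR 5. With library sizes alone the number was 3 in AID-NXF1, 1 in AID-GANP1 and 0 with ActD. With the replicate block it was 4 in GAP1-AID 8 h, 9 in AID-GANP1 and 1 in old AID-TPR 8 h, where the numbers pair no libraries by the check. The block changed no other count by over 1.5 times. DESeq2 passed 3, 1 and 1 pathway genes in old AID-TPR 8 h, NUP153-AID 8 h and NUP50-AID 9 h. The causes of these changes were not tested.

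With 1 library left out, the number of members that passed ranged from 0 to 3 with ActD, 1 to 5 in AID-GANP1, 3 to 6 in AID-NXF1, 0 to 1 in GAP1-AID 8 h and 0 to 4 in old AID-TPR 8 h. For 8 h against 2 h it was 0 to 1 in GAP1-AID and 0 in old AID-TPR and NUP153-AID, and with old2 left out of both auxin groups it was 1 in old AID-TPR. For differences between lines it was 1 to 3 for AID-NXF1 and for AID-GANP1 against the parental line, 0 to 1 for AID-NXF1 against AID-GANP1, 0 to 1 for AID-TPR against AID-NXF1 and 1 to 2 for AID-TPR against AID-GANP1. DDX39B, with 3 to 19 counts in 33 libraries, has no usable depth there.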
